A study of Homo sapiens with 4 samples.

Results

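To describe m6A on long non-coding RNAs (lncRNAs), meRIP-seq peaks of OE-19, an established cell line of adenocarcinoma of the esophagogastric junction, were assigned to genes. In meRIP-seq, RNA fragments are pulled down with an antibody against N6-methyladenosine, and peaks are the stretches where they pile up. A peak was kept when its summit lay in an exon of a gene annotated as lncRNA in GENCODE version 44 on hg38 and in no exon of a protein-coding gene. This rule used the position of the summit alone, and it kept 2155 of the 43925 peaks of both lists. These were 1285 of 24607 peaks in replicate 1 (5.22%) and 870 of 19318 peaks in replicate 2 (4.50%). In the same lists, 18488 and 12003 summits lay in protein-coding exons, and 322 and 213 in pseudogene exons.

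The series held 2 m6A immunoprecipitation (IP) samples and 2 input samples of the same cell line, and the labels give no drug, knockdown or other treatment for any of them. Peaks were listed for each IP replicate separately, and the input samples enter no comparison here. Read numbers are not part of the lists, which leaves the depth unknown, and each replicate is 1 library. Intervals are 95% Wilson intervals, and they and the p-values cover counting error only. The peaks carry no strand, so the strand used for motifs is that of the annotated gene, and RNA from a gene on the opposite strand cannot be told apart.

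lncRNAs are transcripts without a long open reading frame. Many are spliced and polyadenylated like mRNAs, while others stay unspliced in the nucleus, where some scaffold nuclear bodies or act on chromatin. The METTL3 and METTL14 complex places m6A on adenosines in the DRACH context, of which GGAC is the most used core, and the exon junction complex shields bases close to splice junctions, so that long exons carry most of the mark. On mRNAs m6A gathers in long internal exons and near the stop codon, a landmark that lncRNAs do not have.

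The strongest peaks are shown first as sequence, because the GGAC core and its distance from the summit are what the motif results count. Each window holds 101 nt around the replicate 1 summit, 5′ to 3′ on the gene strand, with GGAC in capitals. The first 5 are among the 6 genes whose fold enrichment was highest over both replicates, and the last 3 are well-known lncRNAs with strong replicate 1 peaks, picked after their values were seen. The windows are chr15:101605775-101605875 (minus strand), chr1:15112102-15112202 (minus), chr1:37455672-37455772 (minus), chr9:34681034-34681134 (plus), chr15:84199467-84199567 (minus), chr17:1712667-1712767 (minus), chr10:80218296-80218396 (plus) and chr2:87584813-87584913 (plus), and none of them touches a protein-coding exon.
LINC02348: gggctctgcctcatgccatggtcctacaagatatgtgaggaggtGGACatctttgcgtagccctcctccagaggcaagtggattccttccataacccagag
TMEM51-AS1: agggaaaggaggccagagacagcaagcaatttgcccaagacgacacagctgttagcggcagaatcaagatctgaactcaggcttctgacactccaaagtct
ZC3H12A-DT: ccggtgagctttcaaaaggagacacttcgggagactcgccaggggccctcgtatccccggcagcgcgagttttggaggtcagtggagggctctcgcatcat
ENSG00000230074: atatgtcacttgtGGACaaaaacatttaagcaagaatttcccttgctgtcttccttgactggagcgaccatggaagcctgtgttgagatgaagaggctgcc
ENSG00000290689: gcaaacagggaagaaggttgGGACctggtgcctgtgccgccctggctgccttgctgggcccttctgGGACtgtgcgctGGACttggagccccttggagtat
MIR22HG: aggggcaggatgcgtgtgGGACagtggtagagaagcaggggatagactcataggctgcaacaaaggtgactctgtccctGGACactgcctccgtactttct
LINC00857: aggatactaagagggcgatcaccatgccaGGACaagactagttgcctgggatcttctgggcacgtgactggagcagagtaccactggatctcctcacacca
CYTOR: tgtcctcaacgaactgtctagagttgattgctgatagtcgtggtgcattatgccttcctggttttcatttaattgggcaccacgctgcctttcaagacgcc

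In LINC02348 the A of the GGAC lay 4 nt before the summit. ENSG00000290689 held 3 copies of GGAC in its window, and MIR22HG held 2. The windows of TMEM51-AS1, ZC3H12A-DT and CYTOR held none, although the nearest GGAC was 69, 51 and 86 nt from the summit.

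Next, the peaks that stood out most in both replicates were examined. For each peak the authors' fold enrichment at the summit is given, a ratio over the peak caller's background, and genes were ordered by the geometric mean of both replicates over peaks that overlapped each other. LINC02348, an intergenic lncRNA on chromosome 15, had the highest mean, with 18.8 in replicate 1 and 18.1 in replicate 2. Its summit lay in exon 3 of 3, 15619 bp from the nearest protein-coding exon. TMEM51-AS1, named for lying antisense to TMEM51, had the highest replicate 1 value of all peaks on lncRNA exons, 20.7, and 15.2 in replicate 2. Its last exon (5993 nt) lies inside KAZN on the opposite strand, and the peak reached a protein-coding exon whose edge was 275 bp from the summit. ZC3H12A-DT, transcribed divergently from the gene of the RNase ZC3H12A, had 15.8 and 15.2, in exon 3 of 3. ARHGEF35-AS1 had 18.3 and 13.0, in a last exon of 2644 nt.

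The rest of the 20 strongest genes lay close together. ENSG00000230074 had 16.5 in replicate 1 and 14.0 in replicate 2, GMDS-DT had 16.1 and 14.2, and TNFRSF14-AS1 had 14.6 and 14.7. LINC02893 was higher in replicate 2, with 12.1 and 17.2, as were LINC00680 with 12.1 and 16.5 and ENSG00000246465 with 12.5 and 16.5. LASTR, the last of the 20, had 14.8 and 12.3 (geometric mean 13.5), and the next gene outside the list, ENSG00000290907, had 17.5 and 10.2 (geometric mean 13.4). Neighbours in this order differ by less than the replicates of most of these genes do. The higher value was in replicate 1 for 15 of the 20, beside 73.4% of all pairs of overlapping lncRNA peaks.

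**Figure D1:**
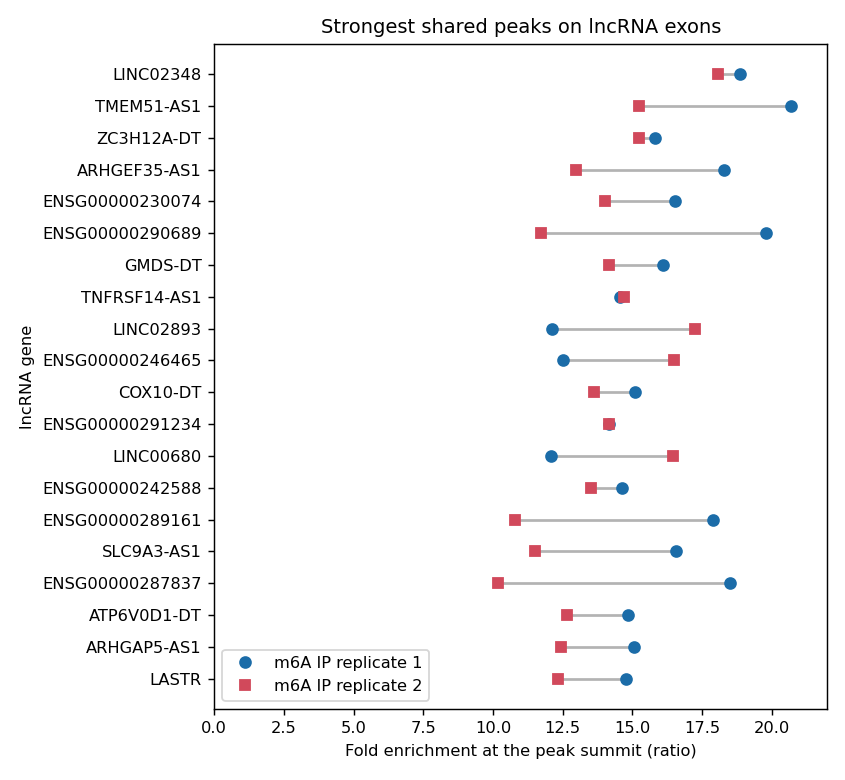
Fold enrichment at the summit (ratio, linear axis from 0) of the strongest shared peak of each of 20 lncRNA genes, ordered by geometric mean, with a circle for m6A IP replicate 1, a square for replicate 2 and a line joining them. LINC02348 is at 18.8 and 18.1, ENSG00000287837 has a wide gap (18.5 and 10.2), and TNFRSF14-AS1 a narrow one (14.6 and 14.7).

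Several of these peaks lay far from the 3′ end of their transcript. LINC02348 had its summit 3039 nt from the 3′ end in replicate 1 and 3074 nt in replicate 2, in an exon of 3250 nt, so that it lay near the start of its last exon. COX10-DT, the divergent partner of a gene for heme A synthesis, had 15.1 and 13.6, at 1428 and 1383 nt from the 3′ end in a last exon of 5741 nt. By contrast, ENSG00000290689 (19.8 and 11.7) had its summit 205 nt from the 3′ end in both replicates, and LINC02893 had its summits 223 and 304 nt from it.

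Outside last exons, ATP6V0D1-DT (14.8 and 12.6) had its summit in exon 2 of 4, which is 219 nt long, and LASTR in exon 2 of 6, of 341 nt. SLC9A3-AS1, antisense to a sodium/proton exchanger gene, had 16.6 and 11.5 in exon 6 of 7, 53 bp from a protein-coding exon. The single-exon ARHGAP5-AS1 had 15.0 and 12.4. In most of the 20 genes the summits of the replicates were close, for example in LINC00680, with the positions 57946979 and 57946982 on chromosome 6, whereas GMDS-DT had its summits at 2272509 and 2273097 on the same chromosome within 1 broad peak.

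Among these 20 peaks, 13 held GGAC within 50 nt of the replicate 1 summit and 15 did so in at least one replicate, while 6 held the reverse complement GTCC in replicate 1. Over all lncRNA peaks of replicate 1, GGAC was found at 49.6% of summits and GTCC at 33.8%. The replicate 1 summit lay in the last of several exons in 13 of the 20 genes, and 2 genes, ARHGAP5-AS1 and ENSG00000289161, had a single exon. Of all replicate 1 lncRNA peaks, 47.8% and 18.5% were of these kinds. Most, 16 of 20, lay outside the bodies of protein-coding genes, and 4 lay in one on the opposite strand. Of all replicate 1 lncRNA peaks, 77.3% and 17.5% did so. In 4 genes (TMEM51-AS1, ENSG00000289161, SLC9A3-AS1 and ARHGAP5-AS1) the peak also reached a protein-coding exon, so that its reads cannot be assigned to the lncRNA alone. ENSG00000290689, ENSG00000291234 and LINC00680 carry the GENCODE tag for overlapping a pseudogene.

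The peaks fell on few lncRNA genes. Of 18866 annotated lncRNA genes, 845 (4.48%) had a peak in replicate 1, 610 (3.23%) in replicate 2, 526 (2.79%) in both and 929 (4.92%) in either, whereas 6376 of 20046 protein-coding genes (31.8%) had one in both. The 526 genes made up 86.2% of the replicate 2 genes and 62.2% of the replicate 1 genes. Expression was not measured in these files, so genes without a peak cannot be split into silent and unmethylated ones. Most genes had 1 peak, namely 595 in replicate 1 (70.4%) and 446 in replicate 2 (73.1%), and 112 and 63 genes had 3 or more.

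The share of genes with a peak differed between name classes. It was 10.4% (84 of 807, interval 8.49% to 12.7%) for genes with a symbol outside the other classes, 9.34% (55 of 589, 7.24% to 11.96%) for divergent transcripts, and 8.11% (9 of 111, 4.32% to 14.7%) for snoRNA and miRNA hosts, counting genes with a peak in both replicates. Antisense genes had 6.14% (113 of 1841, 5.13% to 7.33%) and LINC genes 3.62% (82 of 2265, 2.93% to 4.47%). Genes without a symbol had 1.37% (180 of 13109, 1.19% to 1.59%). They were 69.5% of annotated lncRNA genes and 34.2% of the 526 genes. The intervals of the top 3 classes overlap each other, and none of these differences was tested.

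The 5 genes with the most peaks had between 11 and 16 peaks over both lists. ENSG00000242588, on chromosome 7, had 8 peaks in each replicate, all with the summit in its last exon, exon 22 of 22, which is 12291 nt long. Fold enrichment along that exon ran from 3.40 to 14.6 in replicate 1 and from 2.05 to 13.5 in replicate 2. The strongest of them, 1742 nt from the 3′ end in replicate 1 and 1683 nt in replicate 2, was the same peak in both. Most summits of ENSG00000242588 in both replicates also lay in an exon of another annotated gene, so its peak count may not be its own alone. LINC00205, on chromosome 21, had 6 peaks in each replicate, 4 of them in exon 3, of 7336 nt. Its highest peak was not the same in both replicates, with 17.2 at 1589 nt from the 3′ end in replicate 1 and 12.2 at 4380 nt in replicate 2.

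ENSG00000260604 is a single-exon gene of 7153 nt on chromosome 6, with 6 peaks in each replicate spread from 601 to 6726 nt from the 3′ end in replicate 1. Its folds ran from 5.24 to 13.1 in replicate 1 and from 4.10 to 11.5 in replicate 2. TTC28-AS1 had 6 and 5 peaks, with the highest at 14.1 and 9.89. These were different peaks, since the partner of the first had 7.94 in replicate 2. ENSG00000291117, which carries the pseudogene tag, had 7 and 4, and its replicate 1 summits lay in exons of 183 to 2649 nt. Most of its summits in both replicates also lay in an exon of another annotated gene. Of the replicate 1 peaks of these genes, in the same order, 7 of 8, 6 of 6, 5 of 6, 5 of 6 and 4 of 7 overlapped a replicate 2 peak.

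Well-known lncRNAs were then read from fixed lists, which were chosen with earlier results of these data known. The counts therefore describe the listed genes only, and the lists were not tested against each other. Over all annotated lncRNA genes, 526 of 18866 (2.79%) had a peak in both replicates. Of 10 nuclear and chromatin-bound lncRNAs, 2 had a peak in both replicates, 2 in replicate 1 alone, 1 in replicate 2 alone and 5 in neither. NEAT1, the scaffold of paraspeckles, had 3 peaks in replicate 1 and 1 in replicate 2, and the shared one was low, with 2.58 and 2.12. It lay 21064 nt from the 3′ end of the 22743-nt isoform in replicate 1, near the 5′ end. MALAT1, an abundant nuclear speckle RNA, had 1 peak of 1.41 in replicate 2 and none in replicate 1. FTX, from the X inactivation centre, had 3 peaks in each, and every one of these summits also lay in an exon of another annotated gene. Its replicate 1 folds were 5.64, 10.6 and 4.91 and its replicate 2 folds 3.27, 5.76 and 10.1 in the same order, so that the highest peak changed between replicates. KCNQ1OT1, an imprinted antisense transcript, had 8.80 and 5.65 in replicate 1 alone.

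Of 9 cytoplasmic or miRNA-binding lncRNAs, 5 had a peak in both lists, and 4 had none. LINC00857 had 4 peaks in replicate 1 and 3 in replicate 2, the highest in its last exon with 15.4 and 9.34. CYTOR had 1 peak with 14.4 and 5.37, in a last exon of 7234 nt, 5628 nt from the 3′ end, a gap of 1.42 on the log2 scale. UCA1, first known from bladder carcinoma, had 2 peaks in each, with 6.57 and 4.91 for the higher. OIP5-AS1 had 4.82 and 3.25. NORAD, which sequesters PUMILIO proteins, had 2.48 and 1.96, 5079 nt from the 3′ end of its single exon of 5401 nt in replicate 1.

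Of 100 snoRNA and miRNA host genes, 7 had a peak in both replicates, 5 in replicate 1 alone, 1 in replicate 2 alone and 87 in neither, GAS5 and ZFAS1 among the last. MIR22HG, host of miR-22, had 16.5 and 8.64 in exon 4 of 4. MIR210HG, host of the hypoxia-induced miR-210, had 13.0 and 8.32 in exon 2 of 2, and MIR3667HG had 4 peaks in each replicate with highest values of 9.25 and 10.3. MIR34AHG, host of the p53 target miR-34a, had 6.79 and 5.51, but these peaks lay in different places of the same exon and did not overlap. SNHG16 and SNHG29 had 4.35 and 6.44 in replicate 1, and 2.14 and 5.30 in replicate 2.

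Of 22 lncRNAs of cancer or the gut lineage, 6 had a peak in both lists, and 16 had none. PVT1, the neighbour of MYC, had 5.58 and 4.46 in exon 3 of 11. DLEU1 had 4 and 2 peaks, inside a protein-coding gene body on the opposite strand. Its highest values of 8.33 and 6.40 came from different peaks, and the peak with 8.33 in replicate 1 had 4.80 in replicate 2. The peak with 6.40 reached a protein-coding exon whose edge was 199 bp from the summit, so its reads cannot be assigned to DLEU1 alone. LINC01133 had 8.31 and 5.73, but the replicate 1 value belongs to a peak in exon 2 without a partner. Its shared peak in exon 3 had 6.76 in replicate 1. CASC9 had 6.76 and 3.83. GATA6-AS1, the antisense partner of an endodermal transcription factor gene, had 7.58 in replicate 1 and 4.37 in replicate 2, in the first exon. The GATA6-AS1 summit lay 9 bp from a protein-coding exon in replicate 1 and 31 bp in replicate 2, so reads of the lncRNA and of the neighbouring gene cannot be told apart there.

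To ask how well the peaks were found again, an overlap of at least 1 bp with a peak of the other list was counted. In replicate 1, 735 of 1285 peaks on lncRNA exons (57.2%, interval 54.5% to 59.9%) were shared, beside 56.7% of all peaks of that list. In replicate 2, 755 of 870 (86.8%, 84.4% to 88.9%) were shared, beside 74.6% of the list. Peaks on protein-coding exons were shared more often, 60.6% in replicate 1 and 95.9% in replicate 2. Peaks on pseudogene exons were shared less often than those on lncRNA exons, 50.9% and 79.3%. Intronic peaks (39.6% and 36.0%) and intergenic peaks (42.5% and 23.3%) were lower still. The difference, lncRNA minus protein-coding, was −3.43 points in replicate 1 (−6.24 to −0.66, two-sided Fisher's exact test, adjusted p = 0.0208) and −9.11 points in replicate 2 (−11.5 to −6.99, adjusted p = 6.24e-24). The 12 p-values of the comparisons, those below included, were adjusted together by Benjamini-Hochberg. The replicate 1 difference lost its call, at −1.58 points, when only summits 1000 bp or more from a protein-coding exon were used. It was larger with the strongest peak of each gene alone, at −13.5 points (59.3% and 72.8%), and with an overlap of 50% of both peaks, at −6.92 points. The strongest peak is picked from more peaks per gene on coding than on lncRNA genes, so that choice does not treat the classes alike.

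Sharing varied with exon position and with fold enrichment. In replicate 1, 46.4% (40.3% to 52.6%) of first-exon peaks were shared, beside 61.2% (57.3% to 65.0%) of last-exon peaks, and in replicate 2, 79.1% (72.0% to 84.8%) beside 90.2% (87.0% to 92.6%). Single-exon genes were between these, with 55.5% and 86.3%. Replicate 1 peaks above the median fold of the lncRNA peaks were shared at 76.6%, and those at or under it at 37.8%, while in replicate 2 the shares were 89.2% and 84.4%. The median fold of shared and unshared peaks was 7.21 and 5.12 in replicate 1, and 5.41 and 4.99 in replicate 2. These contrasts were not tested.

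Part of the lncRNA peaks held fold values that recur exactly in the lists. In replicate 1, 41 values between 3.38 and 7.35 were each carried by 50 or more peaks of the whole list, and 327 lncRNA peaks (25.4%) had one of them, beside 8.74% of peaks on protein-coding exons and 45.4% of intergenic peaks. These 327 were shared at 30.3%, and the other 958 lncRNA peaks at 66.4%. In replicate 2, 137 lncRNA peaks (15.7%) had one of 24 such values, and were shared at 64.2%, beside 91.0% of the other 733. On protein-coding exons, peaks with such values were shared at 32.1% in replicate 1 and 68.3% in replicate 2, and the others at 63.4% and 97.0%. Outside the recurring values, sharing was thus higher on lncRNA than on protein-coding exons in replicate 1 (66.4% and 63.4%) and lower in replicate 2 (91.0% and 97.0%), differences that were not tested. GGAC was within 50 nt of 48.9% of the 327 summits and 49.8% of the 958.

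Across 692 pairs of overlapping peaks on the same lncRNA gene, fold enrichment had a Pearson correlation of 0.53 and a Spearman correlation of 0.49 between replicates on the log2 scale. On protein-coding genes, 10828 pairs gave 0.70 and 0.69. These are descriptions over peaks, which share their libraries and often their gene. Replicate 1 had the larger value in 508 of these (73.4%), and the log2 ratio had a median of 0.39, and on protein-coding genes the median was 0.44. The summits of a pair were 31 bp apart at the median, and 84.4% were within 100 bp.

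**Figure D2:**
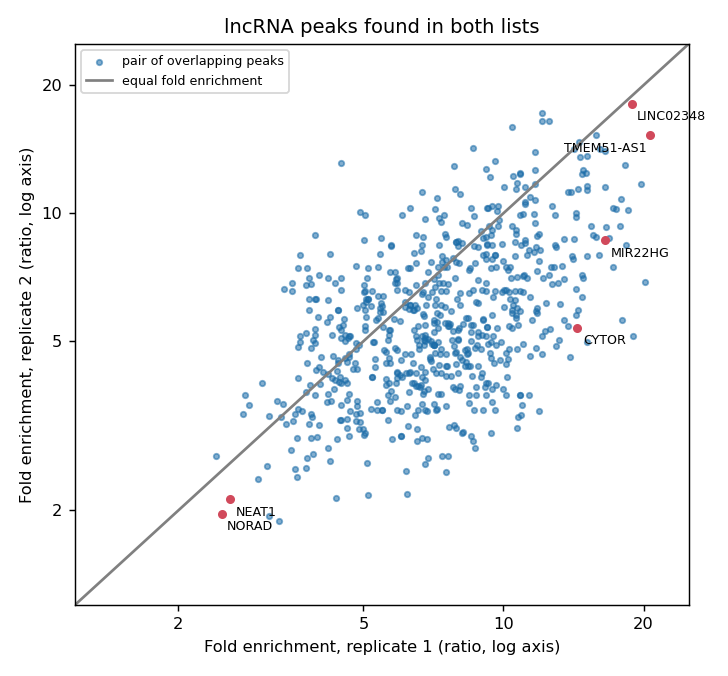
Fold enrichment in replicate 2 against replicate 1 (ratios, both axes logarithmic) for 692 pairs of overlapping peaks on lncRNA genes, 1 point per pair, with the line of equal values. Points fall mostly under the line (508 pairs), NEAT1 and NORAD sit at the low end, CYTOR lies far under the line (14.4 and 5.37), and LINC02348 is at the upper right near it.

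Fold enrichment on lncRNA exons had a median of 5.98 in replicate 1 and 5.32 in replicate 2, and a maximum of 20.7 and 18.1. On protein-coding exons the medians were 5.21 and 4.72 and the maxima 30.4 and 38.1. Pseudogene exons had higher medians than lncRNA exons, 6.13 and 5.71. Intronic peaks had medians of 5.23 and 5.16, and intergenic peaks 5.12 and 5.16. In replicate 1, 62.6% of lncRNA peaks were above the median of the whole list, against 49.2% of coding peaks (difference 13.5 points, 10.7 to 16.2, Fisher's exact test, adjusted p = 4.66e-20). In replicate 2 the shares were 54.8% and 44.6% (10.2 points, 6.81 to 13.6, Fisher's exact test, adjusted p = 1.30e-08). The strength of evidence went the other way, with a median −log10 q of 8.14 on lncRNA exons and 11.996 on coding exons in replicate 1, and 8.24 and 13.4 in replicate 2. With the strongest peak of each gene alone the fold difference lost its call, at 1.34 points in replicate 1 and 3.46 in replicate 2. By construction, that choice keeps the highest of more peaks per gene on coding than on lncRNA genes, so the classes are not treated alike. In replicate 1 there were 18488 peaks on 8075 coding genes and 1285 peaks on 845 lncRNA genes. Among peaks of 5-fold or more, split at the median of those peaks, the difference turned to −4.21 (past the threshold, Fisher's exact test, adjusted p = 0.0285) and −3.78 (not past it).

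The GGAC core was then counted within 50 nt of the summit on the gene strand. It was found at 637 of 1285 lncRNA summits in replicate 1 (49.6%, 46.8% to 52.3%) and 422 of 870 in replicate 2 (48.5%, 45.2% to 51.8%). Over all summits in lncRNA, protein-coding or pseudogene exons the shares were 49.8% and 51.4%. Protein-coding summits alone had 49.8% and 51.7%. The difference was −0.23 points in replicate 1 (−3.06 to 2.59, Fisher's exact test, adjusted p = 0.885) and −3.21 points in replicate 2 (−6.64 to 0.22, adjusted p = 0.0814), so neither passed the threshold, and the intervals leave room for a deficit of a few points. In replicate 2 the difference was called under 5 of 11 alternatives, among them 1 peak per gene (−5.51 points).

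The reverse complement GTCC, which has the same GC content but other bases, was counted in the same windows for comparison. It was found at 33.8% of lncRNA summits in replicate 1 and 30.8% in replicate 2. In replicate 1, 434 summits had GGAC without GTCC and 231 the reverse (exact McNemar test, adjusted p = 1.17e-14), and in replicate 2 the counts were 304 and 150 (adjusted p = 1.25e-12). This difference of 15.8 and 17.7 points was called under every alternative run, at 9.73 to 19.9 points in replicate 1 and 12.1 to 22.8 in replicate 2. As a background, windows outside peaks were taken over all exons of the same genes, and the gene shares were averaged with 1 value per summit. GGAC was found in 28.0% and 27.6% of them, beside 49.4% and 48.2% at the 1275 and 859 lncRNA summits that had such windows. The background includes exons other than the one that held the summit. GTCC was also more frequent at these summits than in the background windows, with 33.8% beside 27.5% in replicate 1 and 30.8% beside 26.7% in replicate 2, so the gap was 6.31 and 4.18 points. For GGAC, the gap between summits and background windows was 21.5 and 24.7 points on protein-coding genes, and 21.4 and 20.6 points on lncRNA genes.

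Along the gene strand, GGAC rose towards the summit, and GTCC showed no such peak. In replicate 1 there were 8.17 GGAC per 100 lncRNA summits in the 20 nt from 200 nt before the summit, 14.4 in the 20 nt that start at the summit and 8.33 in the last 20 nt, whereas GTCC had 7.32, 8.09 and 7.86. In replicate 2, GGAC had 8.16, 14.6 and 10.8 in the same places. The longer TGGAC was within 50 nt of 18.1% and 19.8% of lncRNA summits, and any DRACH of 88.9% and 88.3%, beside 85.7% and 88.9% of coding summits.

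**Figure D3:**
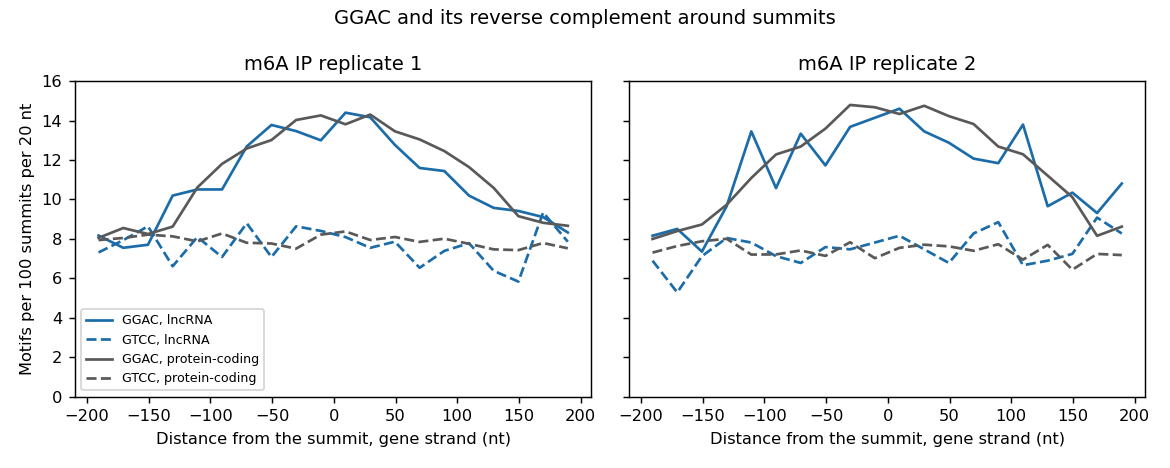
Occurrences of GGAC (solid) and GTCC (dashed) per 100 summits in bins of 20 nt, from 200 nt before to 200 nt after the summit on the gene strand, for lncRNA exons (blue) and protein-coding exons (grey), 1 panel per replicate. GGAC reaches 14.4 and 14.6 on lncRNA exons at the summit and lies close to the grey curve, and GTCC stays between 5 and 10.

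The motif differed somewhat with the surroundings of the gene. Shared lncRNA peaks had GGAC at 52.1% of summits in replicate 1 and 50.1% in replicate 2, and peaks of one list alone had 46.2% and 38.3% (29.9% to 47.4%). Where the lncRNA lay in a protein-coding gene body on the opposite strand, 225 and 150 summits had GGAC at 51.1% and 54.0%, and GTCC, which is GGAC on the other strand, at 35.1% and 37.3%. Where it lay in one on the same strand, 61 and 45 summits had GGAC at 68.9% (56.4% to 79.1%) and 62.2% (47.6% to 74.9%). Outside protein-coding gene bodies, 993 and 672 summits had GGAC at 48.0% and 46.3%, and GTCC at 33.9% and 29.5%. Summits in genes tagged as overlapping a pseudogene, 210 in replicate 1 and 130 in replicate 2, had 42.9% and 42.3%. These groups were not tested against each other.

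The exons that held the summits were then compared. In genes with several exons, 58.6% of replicate 1 summits were in the last exon, 23.9% in the first and 17.5% in an internal one, and in replicate 2 these were 61.7%, 21.5% and 16.8%. Protein-coding summits were in the last exon at 49.7% and 58.8%, and the difference was 8.96 points in replicate 1 (5.87 to 11.999, Fisher's exact test, adjusted p = 3.45e-08) and 2.93 points in replicate 2 (−0.81 to 6.54, adjusted p = 0.137). The share that last exons take of the length of the same transcripts was 59.4% and 60.3% for lncRNAs and 53.3% and 55.5% for coding genes, so that the lncRNA summits were in last exons about as often as length alone gives. With the strongest peak of each gene alone the difference turned to −2.17 and −5.49 points, the latter past the threshold (Fisher's exact test, adjusted p = 0.0218).

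The exon that held the summit was 1349 nt long at the median in replicate 1 and 1502 nt in replicate 2, and 82.8% and 85.3% of summits were in an exon of 400 nt or more, where length alone gives 79.0% and 80.2%. The transcripts themselves were short, with a median of 2323 and 2334 nt and 3 exons, beside 4345 and 4559 nt and 9 exons for coding summits. Single-exon transcripts held 18.5% and 18.4% of lncRNA summits, but 2.07% and 2.70% of coding summits. In replicate 1, 87.1% of lncRNA summits in spliced transcripts were 100 nt or more from a splice junction, where length alone gives 75.3%. In replicate 2 these were 88.6% and 77.1%. Coding summits were that far from a junction at 81.9% in replicate 1 and 91.7% in replicate 2, where length alone gives 66.1% and 69.2%. Against coding summits the difference was 5.23 points in replicate 1 (2.996 to 7.21, Fisher's exact test, adjusted p = 1.77e-05) and −3.11 points in replicate 2 (−5.71 to −0.92, adjusted p = 0.00809). The replicates therefore gave opposite directions in this difference, and in replicate 1 the sign also turned with 1 peak per gene (−1.27 points). Relative to length alone, the excess was larger on coding than on lncRNA transcripts in both replicates, a contrast that was not tested.

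**Figure D4:**
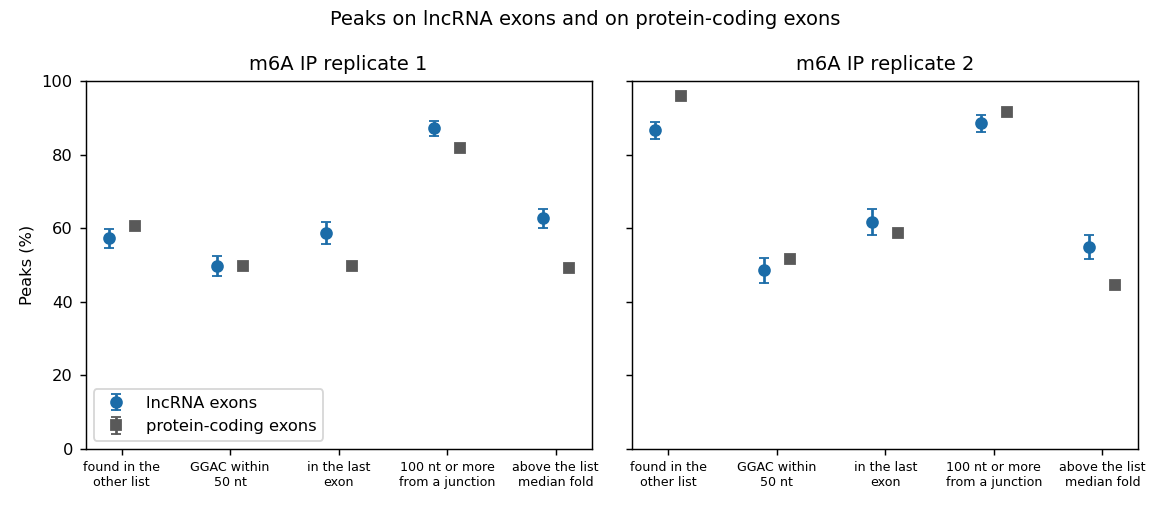
Percent of peaks with each of 5 properties, for lncRNA exons (circles) and protein-coding exons (squares), 1 panel per replicate. Bars are 95% Wilson intervals, smaller than the symbol for protein-coding exons. GGAC shares lie side by side (49.6% and 49.8% in replicate 1), sharing is lower on lncRNA exons, and the order for junction distance turns between the replicates.

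Along the spliced transcript, summits of both classes were denser in the 5′ part. The median position of lncRNA summits was 0.41 of the length from the 5′ end in replicate 1 and 0.42 in replicate 2, beside 0.37 and 0.40 for coding summits, and the median distance from the 3′ end was 1140 and 1121 nt, beside 2392 and 2432 nt for coding summits. In replicate 1, decile 2 of the transcript, counted from the 5′ end, held 13.0% of summits and decile 10 held 5.76%, and in replicate 2, decile 3 held 14.1% and decile 10 held 5.86%. Coding summits were frequent in decile 1 of replicate 1, with 16.9%, where lncRNAs had 11.5%. In replicate 2, decile 1 held 11.5% of coding and 7.59% of lncRNA summits. Within 200 nt of the 5′ end lay 11.7% and 9.66% of lncRNA summits, beside 10.5% and 4.97% of coding summits. Counted in nucleotides, the order was thus the reverse of that in decile 1, which is a share of transcripts of unlike length. Transcript ends are less well annotated for lncRNAs than for mRNAs, and 71.7% and 70.5% of the lncRNA summits could be placed on the gene's canonical transcript.

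**Figure D5:**
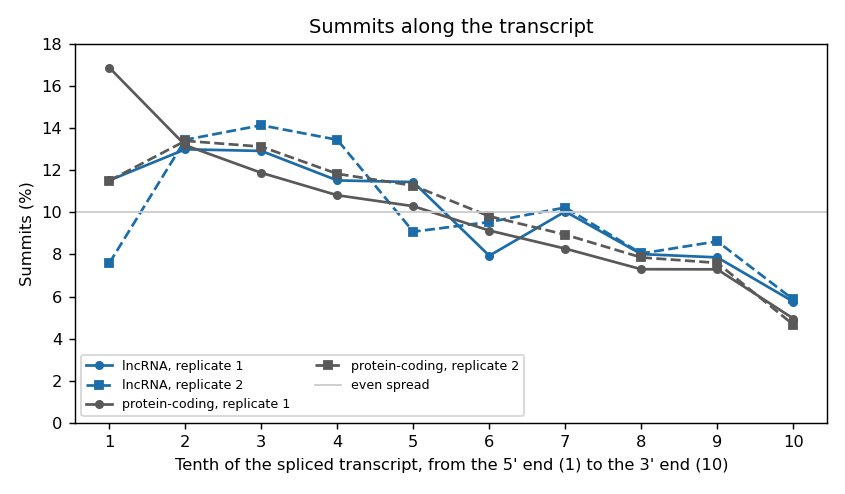
Percent of summits in each decile of the spliced transcript, from the 5′ end (1) to the 3′ end (10), for lncRNA exons (blue) and protein-coding exons (grey), solid for replicate 1 and dashed for replicate 2, with a line at the 10% of an even spread. All 4 curves end low, at 5.76% and 5.86% for lncRNAs, and the lncRNA curves are lower than the coding ones of the same replicate in decile 1.

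Since many lncRNA exons lie close to mRNAs, their distance from protein-coding exons was measured. Of the replicate 1 peaks, 993 (77.3%) lay outside protein-coding gene bodies, 225 (17.5%) inside one on the opposite strand, 61 (4.75%) inside one on the same strand and 6 in both kinds. In replicate 2 these were 672 (77.2%), 150 (17.2%), 45 (5.17%) and 3. The summit was under 1000 bp from a protein-coding exon for 296 peaks in replicate 1 (23.04%) and 193 in replicate 2 (22.2%), and the peak itself reached one for 69 and 53. The summit lay in exons of several genes for 177 (13.8%) and 97 (11.1%) peaks. Peaks 1000 bp or more away had median folds of 6.22 and 5.42, and those nearer had 5.50 and 5.02.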

How the data were processed

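MeRIP-seq peak lists of OE-19 cells were used, 1 for each of the 2 m6A IP samples. Groups came from the sample titles. The 2 input samples were not analysed here. The study's methods describe m6A antibody pull-down from fragmented total RNA, and the labels UV-fixed lysates. The methods name TopHat2 for mapping to hg38, the submitters' processing notes name fastp, HISAT2 and MACS2, and the releases are not given in the sources used here. No source says whether the caller used the input as control. For every peak, the authors deposited a fold enrichment (a ratio to the caller's background at the summit), −log10 p-value, −log10 q-value, a score derived from q, and the summit offset. The score and p-value were not used. All q were at most 0.0491 in replicate 1 and 0.0497 in replicate 2. Fold enrichment depends on the caller's background, so it is not an m6A level.

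Summits were placed on GENCODE version 44 with coordinates 1-based, and no peak ran past a chromosome end. The 55 and 110 peaks on other contigs were kept out of the members. A summit in exons of several lncRNA genes was given to the gene with the longest total exon length. The other genes were not credited with it, so they can count as genes without a peak. Where a summit lay in several transcripts, the canonical one was preferred. Shared peaks overlapped by 1 bp or more, and pairs were mutual largest overlaps on the same gene. Two-sided Fisher's exact tests and exact McNemar tests were adjusted over 12 comparisons (threshold 0.05). Differences have Newcombe intervals. Peaks of 1 gene are not independent, but the p-values treat them as independent. Shares expected by length were taken over each summit's own transcript. The genes named are the 20 with the largest geometric mean fold of a shared peak, the 5 with the most peaks, and fixed lists of known lncRNAs, of which TUG1, TINCR and CCAT1 were not annotated as lncRNA under these names. The genes, lists and tests were chosen with earlier results of these data known. The scripts were tested on simulated data. Alternatives changed the q or fold limit, summit, overlap, motif window, junction distance, transcript, context, peaks per gene and replicate. The tools were pysam 0.24.0, scipy 1.17.1, numpy 2.4.6, pandas 2.3.3 and matplotlib 3.10.9 under Python 3.11.15. Some items of these lists are not reported here.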

Additional observations from a re-analysis of the deposited data

How the results depend on the processing

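The excess of GGAC over GTCC in both replicates and the lower sharing in replicate 2 kept their direction and call under every alternative run for them. Of the 162 values recomputed, 123 kept both direction and call or, for counts, stayed near the main value. Of the others, 12 reversed direction, 12 lost their call, 9 gained one and 6 counts moved further. In points (lncRNA minus protein-coding), a −log10 q of 5 or more gave GGAC 0.21 in replicate 1 and −4.48 (called) in replicate 2, and junction distance 1.995 (not called) in replicate 1. A fold of 5 or more gave junction distance −0.11 and fold −4.21 (called) in replicate 1, GGAC −5.53 (called) and fold −3.78 in replicate 2, and left 491 peaks in replicate 2 and 319 genes in both. The peak midpoint gave GGAC 0.27 in replicate 1 and junction distance −1.70 (not called) in replicate 2. Summits in exons of 1 gene gave sharing −2.86 (not called) and GGAC 0.22 in replicate 1, and last exon 5.52 (called) and junction distance −2.40 (not called) in replicate 2. With 1 peak per gene, which left 845 peaks in replicate 1, last exon was −2.17 (not called) and −5.49 (called) in the replicates, junction distance −1.27 and fold 1.34 (not called) in replicate 1, and GGAC −5.51 (called) and fold 3.46 (not called) in replicate 2. Outside protein-coding gene bodies, sharing was −2.42 (not called) in replicate 1 and GGAC −5.44 (called) in replicate 2. At 1000 bp or more from a protein-coding exon, sharing was −1.58 (not called) in replicate 1, and GGAC −5.19 (called), last exon 6.99 (called) and junction distance −1.98 (not called) in replicate 2. The longest transcript gave last exon 5.68 (called), and a junction distance of 200 nt gave 0.28, in replicate 2. Shared peaks only, 735 in replicate 1 on 550 genes in either, gave last exon 4.15 (not called) and junction distance −1.44 in replicate 1, and last exon 4.66 (called) in replicate 2. Without genes tagged as overlapping a pseudogene, an alternative chosen after seeing the data, sharing was −2.86 (not called) and GGAC 1.08 in replicate 1, and junction distance −2.09 (not called) in replicate 2. Leaving out 1 replicate left 610 to 845 genes. By construction, a fold minimum cuts the distribution that the fold comparison splits. Also by construction, 1 peak per gene keeps the strongest of more peaks per gene on coding than on lncRNA genes. How far this moved its values, and the cause of the other changes, was not tested. No paired analysis was possible because the input samples have no values here, so no groups with shared replicate numbers could be compared. The lists hold no read numbers, so depth limits every count in a way that could not be measured.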

Other observations

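Peaks on lncRNA exons were spread unevenly over chromosomes. Chromosome 7 held 8.17% of them in replicate 1 and 8.28% in replicate 2, beside 4.77% and 4.97% of the peaks on protein-coding exons. Chromosome 21 held 3.74% and 3.56%, beside 1.15% and 1.28%, and chromosome 19 held 3.35% and 4.14%, beside 8.85% and 7.77%. The number of lncRNA genes per chromosome was not taken into account.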
